A study of Mus musculus with 72 samples.

Results

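Pdk4, Cpt1a, Angptl4, Fgf21, Ehhadh, Vnn1, Acot1 and Creb3l3 are 8 textbook fasting targets of PPAR alpha, a nuclear receptor, and their mRNA levels were followed in mouse liver and lung after whole body irradiation (WBI). They were chosen by name, as the array probes whose transcript accession belongs to one of these genes, and make up 8 of the 23787 genes with a named probe. Female C57BL/6 J mice, 6 to 8 weeks old, received X-rays once to the whole body, at 12, 8, 4, 2 or 1 Gy, and the 0 Gy animals were sham irradiated. Livers and lungs were taken 48 h later, each from 3 mice per dose, so that 36 mRNA arrays were available, 18 of each tissue. The labels do not say whether both tissues came from the same animals. All groups shared strain, sex and age, and no group carried a transgene or a drug. The feeding state and body weight of the animals are not given in the sources used here. Replicates were separate animals, named below by the sample number of the labels (1, 11 and 21 at 0 Gy, 2, 12 and 22 at 1 Gy, 3, 13 and 23 at 2 Gy, 4, 14 and 24 at 4 Gy, 5, 15 and 25 at 8 Gy, and 6, 16 and 26 at 12 Gy).

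PPAR alpha is activated by fatty acids, pairs with the retinoid X receptor and binds a direct repeat of the hexamer AGGTCA with a single base between the copies, called a PPRE. In fasting liver, fatty acids released from adipose tissue activate the receptor, which turns on genes for fatty acid import, oxidation and ketone body synthesis and for hormones that act on other tissues. Several of these genes also answer to other signals, among them glucocorticoids and the related receptor PPAR delta, so that their mRNA is not a readout of PPAR alpha alone. Within the group, Pdk4 encodes a kinase that inactivates pyruvate dehydrogenase and spares glucose, and Cpt1a the enzyme that commits fatty acids to mitochondrial oxidation. Angptl4 encodes a secreted inhibitor of lipoprotein lipase, Fgf21 a secreted fasting hormone, and Ehhadh the bifunctional enzyme of peroxisomal fatty acid oxidation. Vnn1 encodes vanin, a pantetheinase, Acot1 a cytosolic acyl-CoA thioesterase, and Creb3l3 a membrane-bound transcription factor of hepatocytes.

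Each of the 8 genes was read by 1 probe with 1 spot per array among the probes with RefSeq names, while 9009 probes with Ensembl transcript names were not matched to genes here. All levels below are log2 values of background-corrected and quantile-normalized probe intensity, normalized within a tissue, and a gene was called changed where the log2 difference exceeded 1 in size and the adjusted p-value was below 0.05. The dose trend is the slope of the log2 level against dose, given as the change over 12 Gy. By that trend 8987 of 38362 tested liver probes and 18188 of 43979 tested lung probes had an unadjusted p-value below 0.05 in limma. Between 46.1 and 54% of spots were well above background on the liver arrays and between 54.1 and 64% on the lung arrays, and no member spot was saturated or marked as an outlier. All lung arrays of 12 Gy shared a slide with that of the 8 Gy mouse 25, and these read 54.1 to 54.8%. The other lung arrays read 59.2 to 64%. In liver all 8 members were tested. In lung 7 were tested, since this Fgf21 probe was not well above background on any lung array. The Acot1 probe may also bind transcripts of its near-identical neighbours, so that its signal is uncertain as to copy.

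The tissue labels were checked against marker genes. In liver all 10 hepatocyte markers were well above background on every array and 0 of 10 were called by the dose trend, with 2 at an unadjusted p-value below 0.05 in limma. In lung all 8 markers of lung epithelium were well above background on every array, and 1 of 8 was called falling by the dose trend (Sftpb, −1.19, adjusted p = 0.00738), with 3 at an unadjusted p-value below 0.05 in limma. Lung samples also carried signal of other tissues, as all 8 markers of white and brown adipocytes and all 7 of cardiac muscle were well above background on all 18 lung arrays. The adipocyte sum (log2 of the summed marker intensities) ran from 15.31 to 17.63 in lung and from 9.09 to 10.08 in liver. Among livers the cardiac muscle sum was 13.13 in the 2 Gy mouse 13 and 14.78 in the 2 Gy mouse 23, against 9.06 to 9.97 in the other 16. Markers of B cells (5 of 5 in lung, 3 of 4 tested in liver), T cells (5 of 5 and 2 of 5) and erythroid cells (4 of 4 and 2 of 4) were called falling with dose. These are bulk tissues, in which fewer cells of a type and less RNA per cell cannot be told apart.

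At the largest dose, 12 Gy, 1 of 8 members was called higher in liver and 3 of 7 in lung, and no member was called lower at any dose. In liver 0 of 8 members were called at 1 Gy (0.0339% of all tested probes), 0 at 2 Gy (0.245%) and 0 at 4 Gy (0.944%), with limma giving 0, 1 and 4 at an unadjusted p-value below 0.05. Over all 38362 tested liver probes these unadjusted counts were 2713, 4524 and 6948. Angptl4 was the 1 member called at 8 Gy (2.21% of all probes) and again at 12 Gy (2.06%). The liver dose trend called 2 of 8, Pdk4 and Angptl4, against 2.03% of all probes. In lung 0 of 7 members were called at 1 Gy (0.0227%) and 0 at 2 Gy (0.443%), with 1 at an unadjusted p-value below 0.05 in limma at each dose, lower at 1 Gy and higher at 2 Gy. Over all 43979 tested lung probes the unadjusted counts at these doses were 2427 and 3369. Angptl4 and Acot1 were called at 4 Gy (1.46%) and at 8 Gy (2.52%), and Pdk4, Angptl4 and Acot1 at 12 Gy (7.32%). The same 3 genes were called by the lung dose trend, against 7.05% of all probes.

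The middle of the group moved with dose as well. Over the 8 members in liver the median log2 difference from 0 Gy was −0.07 at 1 Gy, 0.13 at 2 Gy, 0.48 at 4 Gy, 0.52 at 8 Gy and 0.69 at 12 Gy, while the median over all tested probes was 0.01 at 12 Gy. Over the 7 members tested in lung it was −0.14, 0.27, 0.63, 0.56 and 1.13 at these doses, beside 0.09 over all tested probes at 12 Gy. At 4 and 12 Gy that lung median was the value of Creb3l3, an uncalled member well above background on 10 of 18 lung arrays. Its lung levels at 4 Gy were 5.14, 4.67 and 8.35. All 8 members lay above 0 in liver at 4 and at 8 Gy and 7 of 8 at 12 Gy, and in lung 7 of 7 lay above 0 at each dose from 2 Gy. These counts come from genes that share arrays and 0 Gy mice and are given as a description.

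**Figure D1:**
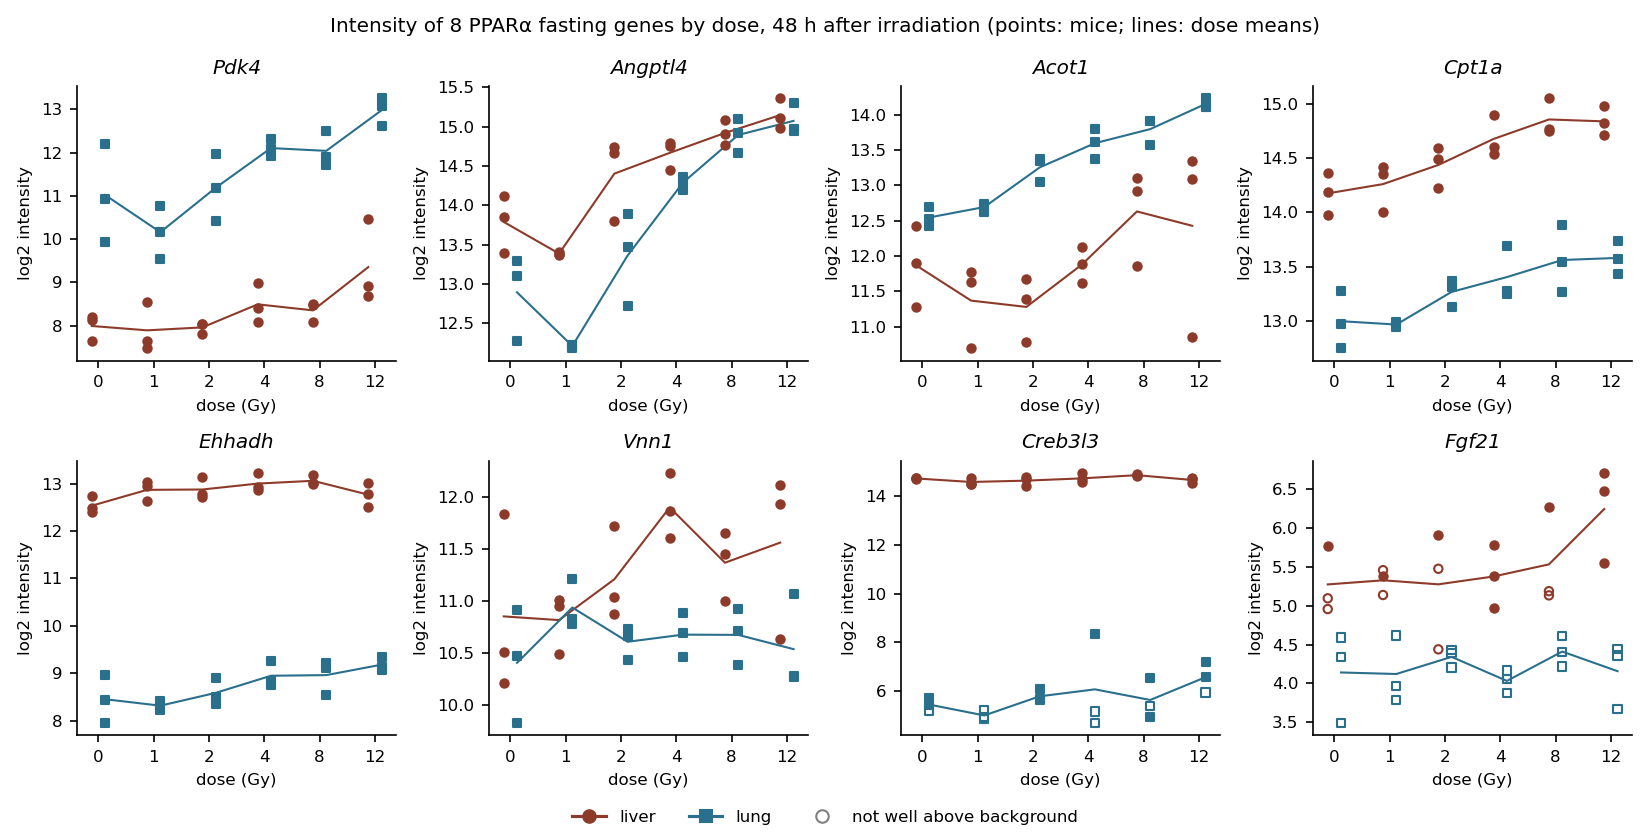
Log2 level of each of the 8 members (panels) against dose in Gy, with a point per mouse (circles for liver, squares for lung, open where the spot was not well above background) and a line through the mean of each dose. Angptl4 at 4 Gy and above lies over all 0 Gy mice in both tissues, the lung means of Acot1 stand in the order of dose, and every lung point of Fgf21 is open.

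Angptl4, the lipoprotein lipase inhibitor, rose in both tissues, at 8 and 12 Gy in liver and from 4 Gy in lung. Its probe (A_51_P338443) reads a gene at chr17:33774900-33781575 (GRCm38.p6). In liver the log2 levels of Angptl4 were 13.86, 13.39 and 14.12 at 0 Gy, 13.38, 13.37 and 13.40 at 1 Gy, 13.80, 14.66 and 14.74 at 2 Gy, 14.76, 14.45 and 14.79 at 4 Gy, 14.77, 15.08 and 14.91 at 8 Gy, and 15.11, 14.98 and 15.36 at 12 Gy. Every liver sample at 4, 8 and 12 Gy lay above all unirradiated livers, while 1 and 2 Gy overlapped them. Liver Angptl4 was 0.88 higher on the log2 scale at 4 Gy (adjusted p = 0.0493), below the fold threshold, then rose 2.19-fold at 8 Gy (log2 1.13, SE 0.23, adjusted p = 0.00727) and 2.56-fold at 12 Gy (log2 1.36, adjusted p = 0.00219). Its dose trend was 1.52 over 12 Gy (SE 0.26, adjusted p = 0.00114). The 8 Gy call was lost without the 0 Gy mouse 11 (log2 0.93, adjusted p = 0.0401), and a 4 Gy call was gained without the 0 Gy mouse 21 (log2 1.04, adjusted p = 0.0447).

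Lung Angptl4 read 13.10, 12.28 and 13.30 at 0 Gy, 12.23, 12.22 and 12.18 at 1 Gy, 12.72, 13.48 and 13.89 at 2 Gy, 14.36, 14.31 and 14.19 at 4 Gy, 14.66, 14.92 and 15.10 at 8 Gy, and 15.30, 14.94 and 14.97 at 12 Gy. The 1 Gy lungs lay just below all 0 Gy lungs, and from 4 Gy every lung lay above them. The 1 Gy difference of −0.68 was not called (adjusted p = 0.818). Angptl4 rose 2.63-fold at 4 Gy (log2 1.39, SE 0.27, adjusted p = 0.0113), 4.00-fold at 8 Gy (log2 2.00, adjusted p = 0.000308) and 4.53-fold at 12 Gy (log2 2.18, adjusted p = 0.000106). The lung trend of 2.66 over 12 Gy (SE 0.36, adjusted p = 4.01e-05) corresponds to 6.34-fold. Without the 0 Gy mouse 11 the 4 Gy difference was 1.08 and no longer called (adjusted p = 0.0503).

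Pdk4, the pyruvate dehydrogenase kinase, rose with dose in both tissues, with wide spread between mice of a dose. Its probe (A_51_P350453) reads a gene at chr6:5483351-5496278. In liver Pdk4 read 7.64, 8.20 and 8.13 at 0 Gy, 8.54, 7.48 and 7.65 at 1 Gy, 7.81, 8.03 and 8.03 at 2 Gy, 8.40, 8.08 and 8.99 at 4 Gy, 8.09, 8.47 and 8.50 at 8 Gy, and 8.91, 8.69 and 10.45 at 12 Gy. The 12 Gy livers were the only dose group clear of the unirradiated ones, and 1 of them, mouse 26, stood far above every other liver. Liver Pdk4 had a dose trend of 1.30 (SE 0.31, adjusted p = 0.0121) and was 2.57-fold higher at 12 Gy, which missed the threshold (log2 1.36, SE 0.39, adjusted p = 0.0509). Without mouse 26 the trend was 0.83 and fell below the fold threshold (adjusted p = 0.0432), and the 12 Gy difference was 0.81 (adjusted p = 0.168). The 12 Gy difference passed without the 12 Gy mouse 16 (log2 1.69, adjusted p = 0.0274) and without the 1 Gy mouse 2 (log2 1.36, adjusted p = 0.0379).

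In lung Pdk4 read 10.93, 9.92 and 12.21 at 0 Gy, 9.54, 10.77 and 10.17 at 1 Gy, 10.41, 11.98 and 11.17 at 2 Gy, 12.31, 11.91 and 12.08 at 4 Gy, 11.89, 12.50 and 11.72 at 8 Gy, and 13.07, 12.61 and 13.25 at 12 Gy. Unirradiated lungs spread widely, and the 12 Gy lungs alone lay above all of them. Lung Pdk4 rose 3.88-fold at 12 Gy (log2 1.96, SE 0.49, adjusted p = 0.0114), and its trend was 2.27 (SE 0.45, adjusted p = 0.00109). The 12 Gy call was lost without the 0 Gy mouse 11, whose Pdk4 was lowest of the 3 (log2 1.41, adjusted p = 0.0548).

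Pdk4 is also expressed in brown fat, and lung Pdk4 varied together with brown fat markers. Lung Ucp1, the uncoupling protein that defines brown adipocytes, read 12.88, 10.88 and 14.73 at 0 Gy, 8.31, 13.26 and 11.60 at 1 Gy, 12.64, 14.54 and 12.06 at 2 Gy, 14.23, 13.76 and 13.56 at 4 Gy, 12.17, 14.71 and 12.26 at 8 Gy, and 15.11 and 13.32 at 12 Gy. The Ucp1 spot of the 12 Gy mouse 16 was marked as an outlier by the scanner software and left out. Among the 0 Gy lungs mouse 21 was highest and mouse 11 lowest in both Ucp1 and Pdk4, and the 1 Gy mouse 2 was the lowest of all lungs in both. The lung with the highest cardiac muscle sum also had the highest Pdk4 at 0, 4, 8 and 12 Gy, but not at 1 or 2 Gy. That sum was 17.43 in the 0 Gy mouse 21, 18.32 in the 4 Gy mouse 4, 17.17 in the 8 Gy mouse 15 and 18.13 in the 12 Gy mouse 26. Ucp1 itself was not called by the dose trend (1.78, adjusted p = 0.233), nor was the brown fat gene Cidea (1.75, adjusted p = 0.132), and 0 of 8 adipocyte markers were called, with 1 at an unadjusted p-value below 0.05 in limma. With the Ucp1 level as a covariate over 17 lung arrays, an alternative chosen after seeing the data, the lung trends were 1.70 for Pdk4 (SE 0.29, adjusted p = 0.000993), 2.53 for Angptl4 (adjusted p = 0.000386) and 1.49 for Acot1 (adjusted p = 0.000198). With the adipocyte sum as the covariate over all 18 arrays, also chosen after seeing the data, they were 1.97, 2.53 and 1.51. All 3 genes were called under both. Only fat markers entered these fits, and the part of heart and skeletal muscle signal in the 3 trends was not tested.

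**Figure D2:**
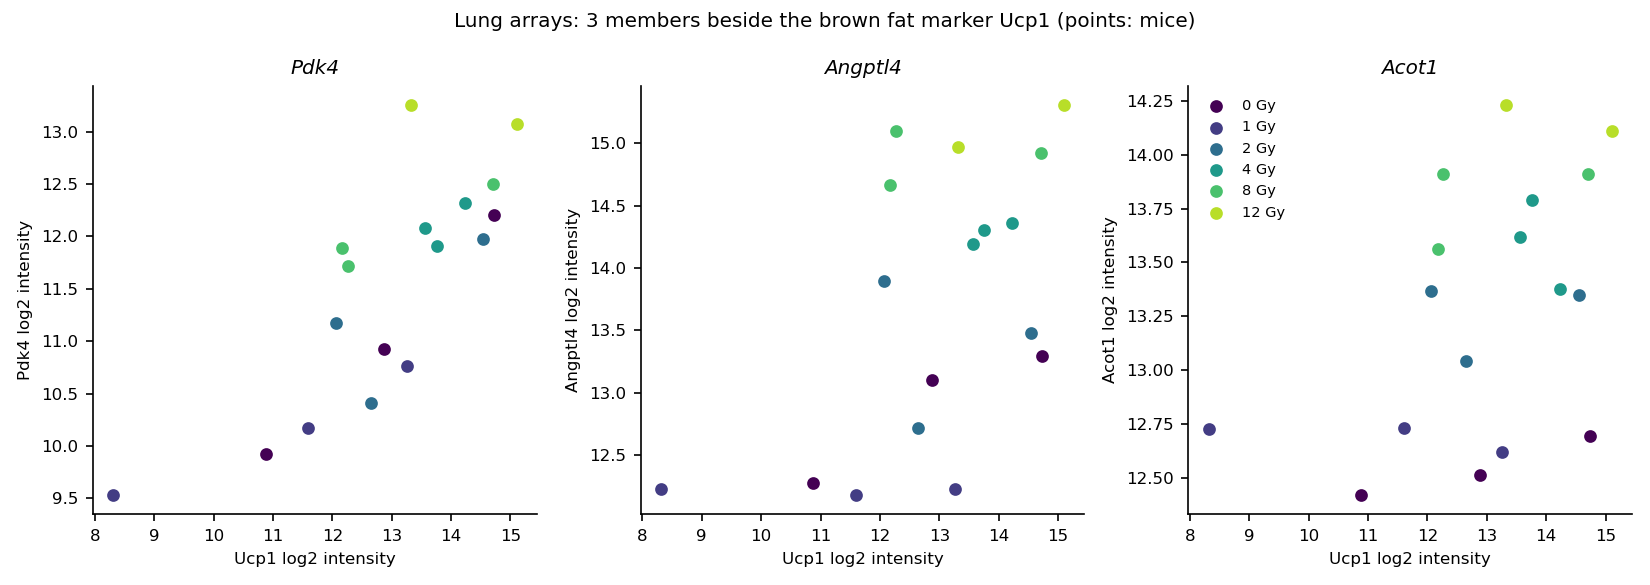
Log2 level of Pdk4, Angptl4 and Acot1 (panels, vertical axis) against the log2 level of the brown fat marker Ucp1 (horizontal axis) in 17 lungs, with points coloured by dose. At each dose up to 8 Gy the lung with the highest Ucp1 also had the highest Pdk4, while Acot1 of the 0 Gy lungs stayed between 12.42 and 12.69 over their whole Ucp1 range.

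Acot1, the acyl-CoA thioesterase, rose in lung with little spread between mice of a dose, while its liver levels overlapped at every dose. Its probe (A_51_P451574) reads a gene at chr12:84009502-84017670. In lung Acot1 read 12.52, 12.42 and 12.69 at 0 Gy, 12.73, 12.62 and 12.73 at 1 Gy, 13.04, 13.35 and 13.37 at 2 Gy, 13.38, 13.79 and 13.62 at 4 Gy, 13.56, 13.91 and 13.91 at 8 Gy, and 14.11, 14.11 and 14.23 at 12 Gy. The dose means stood in the order of dose, and every lung from 2 Gy up lay above all 0 Gy lungs. At 2 Gy the difference of 0.71 had an adjusted p-value of 0.049 and was below the fold threshold. Acot1 rose 2.07-fold at 4 Gy (log2 1.05, SE 0.15), 2.38-fold at 8 Gy and 3.05-fold at 12 Gy (log2 1.61, adjusted p = 6.4e-06), with a trend of 1.52 (SE 0.18). The 4 Gy value sat at the fold threshold, and was 0.99 without the 0 Gy mouse 11 and 0.96 without the 4 Gy mouse 14, and was not called in either case.

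Liver Acot1 read 11.28, 11.90 and 12.43 at 0 Gy, 11.78, 11.64 and 10.69 at 1 Gy, 10.78, 11.38 and 11.67 at 2 Gy, 11.89, 11.61 and 12.12 at 4 Gy, 12.92, 13.10 and 11.86 at 8 Gy, and 13.08, 10.86 and 13.34 at 12 Gy. The groups overlapped at every dose, and the 12 Gy mouse 16 lay below all unirradiated livers while the other 12 Gy mice lay above them. The liver trend of 1.12 was not called (SE 0.44, adjusted p = 0.126). Without mouse 16 it was 1.76 and called (adjusted p = 0.00505).

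Sequence before the transcription start is shown for Pdk4 and Acot1, called in at least 1 tissue, for Cpt1a, whose adjusted p-values were below 0.05 under the fold threshold, and for the Creb3l3 start that held a match to the receptor's element. RefSeq promoters (GRCm38.p6) were listed for 6 of the 8 members, all but Angptl4 and Vnn1. The element AGGTCANAGGTCA was searched on both strands, from 250 bases before to 50 bases after the start, with up to 2 mismatches in its 12 fixed bases, and 3.86% of all 32851 listed promoters (1268) held such a match. Of the members, it was found before 1 of the 2 listed starts of Creb3l3, and in none of the windows of Pdk4, Cpt1a, Acot1, Fgf21 and Ehhadh. The 250 bases before the start follow, 5′ to 3′ in the direction of the gene, for Pdk4 (chr6:5496279-5496528, minus strand), Acot1 (chr12:84009252-84009501, plus strand), Cpt1a (chr19:3323051-3323300, plus strand) and the Creb3l3 start with the match (chr10:81092592-81092841, minus strand). Capitals mark the match, AGGGGAGAGGTCA, whose first base lies at −209 from the start and which has 2 mismatches.
Pdk4: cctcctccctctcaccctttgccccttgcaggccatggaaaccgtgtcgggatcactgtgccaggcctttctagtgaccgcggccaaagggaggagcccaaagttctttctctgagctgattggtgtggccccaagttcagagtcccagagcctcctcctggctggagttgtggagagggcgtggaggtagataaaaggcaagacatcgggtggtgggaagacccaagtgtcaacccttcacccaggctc
Acot1: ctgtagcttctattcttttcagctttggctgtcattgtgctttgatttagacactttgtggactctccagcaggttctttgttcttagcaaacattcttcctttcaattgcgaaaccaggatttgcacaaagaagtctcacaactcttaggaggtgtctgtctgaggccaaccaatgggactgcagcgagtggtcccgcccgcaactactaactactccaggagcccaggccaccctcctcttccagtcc
Cpt1a: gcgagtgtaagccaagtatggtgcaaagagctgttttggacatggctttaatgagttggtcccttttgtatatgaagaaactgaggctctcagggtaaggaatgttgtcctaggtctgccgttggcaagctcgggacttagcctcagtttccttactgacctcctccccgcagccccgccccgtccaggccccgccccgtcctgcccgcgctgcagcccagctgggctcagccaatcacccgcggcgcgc
Creb3l3: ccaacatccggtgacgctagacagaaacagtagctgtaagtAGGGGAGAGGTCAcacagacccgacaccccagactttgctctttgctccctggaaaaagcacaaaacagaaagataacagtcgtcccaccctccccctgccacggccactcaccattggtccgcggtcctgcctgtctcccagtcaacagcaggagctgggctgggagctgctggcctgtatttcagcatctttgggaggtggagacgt
A missing match says only that these letters are not in this window. GC content over the 250 bases was 58.8% for Pdk4, 48.8% for Acot1, 59.6% for Cpt1a and 56.8% for Creb3l3.

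Cpt1a, the carnitine palmitoyltransferase of mitochondrial fatty acid import, was moderately higher at the larger doses in both tissues without reaching the fold threshold. Its probe (A_51_P427674) reads a gene at chr19:3322326-3385735. In liver Cpt1a read 14.18, 13.98 and 14.36 at 0 Gy, 14.42, 14.36 and 14.00 at 1 Gy, 14.22, 14.60 and 14.49 at 2 Gy, 14.54, 14.60 and 14.89 at 4 Gy, 14.77, 14.75 and 15.05 at 8 Gy, and 14.82, 14.71 and 14.98 at 12 Gy. All livers from 4 Gy up lay above all unirradiated livers. The differences were 0.50 at 4 Gy (adjusted p = 0.097), 0.68 at 8 Gy (adjusted p = 0.0146) and 0.66 at 12 Gy (adjusted p = 0.0184), and the trend was 0.69 (SE 0.14, adjusted p = 0.00341). Lung Cpt1a ran from 12.75 to 13.28 at 0 Gy and from 13.43 to 13.74 at 12 Gy, the only dose clear of the unirradiated lungs. Its lung difference at 12 Gy was 0.58 (adjusted p = 0.0344) and its trend 0.62 (SE 0.15, adjusted p = 0.00492). Before normalization the lung Cpt1a spots read 8530, 7737 and 10483.5 at 0 Gy and 9245.5, 6679 and 9474 at 12 Gy. The lung rise of Cpt1a is thus relative to the rest of each array, and the part of slide in it was not tested. An adjusted p-value below 0.05, whatever the fold, was found for many probes. In lung these were 9374 of 43979 at 12 Gy and 13480 by trend. In liver they were 3797 of 38362 at 8 Gy, 2692 at 12 Gy and 3646 by trend.

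Ehhadh, the peroxisomal enzyme (A_51_P462918, chr16:21761285-21787834), was not called in either tissue. In lung Ehhadh ran from 7.95 to 8.97 at 0 Gy and from 9.07 to 9.35 at 12 Gy, with a difference of 0.73 (adjusted p = 0.0459) and a trend of 0.80 (SE 0.20, adjusted p = 0.00536). Before normalization its lung spots read 317, 434 and 585.5 at 0 Gy and 389.5, 351 and 398 at 12 Gy. The lung rise of Ehhadh is thus relative to the rest of each array, and the part of slide in it was not tested. Of all 43979 tested lung probes, 9374 at 12 Gy and 13480 by trend had an adjusted p-value below 0.05. Liver Ehhadh ran from 12.39 to 12.73 at 0 Gy, from 12.86 to 13.22 at 4 Gy, from 12.99 to 13.17 at 8 Gy and from 12.50 to 13.01 at 12 Gy. It was thus clear of the unirradiated livers at the middle doses and overlapped them at 12 Gy, with differences of 0.47, 0.53 (adjusted p = 0.0614) and 0.23 (adjusted p = 0.489) and a trend of 0.15 (adjusted p = 0.647).

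Vnn1, the pantetheinase (A_51_P424532, chr10:23894688-23905344), varied more between livers of a dose than between doses. Liver Vnn1 read 10.21, 10.51 and 11.83 at 0 Gy, 10.49, 10.95 and 11.01 at 1 Gy, 10.87, 11.72 and 11.03 at 2 Gy, 11.60, 11.87 and 12.23 at 4 Gy, 11.45, 11.65 and 11.00 at 8 Gy, and 11.93, 10.63 and 12.11 at 12 Gy. The 0 Gy mouse 21 was as high as irradiated livers, and every dose overlapped the unirradiated group. Its largest liver difference, 1.05 at 4 Gy, was not called (SE 0.42, adjusted p = 0.199), and its trend was 0.65 (adjusted p = 0.301). In lung Vnn1 had a trend of −0.06 (adjusted p = 0.854).

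Creb3l3, the hepatocyte transcription factor (A_55_P2174987, chr10:81084329-81098872), stayed within a narrow band in liver, from 14.45 to 14.96 over all 18 arrays, with a trend of 0.08 (adjusted p = 0.713). Lung Creb3l3 read 5.18, 5.39 and 5.71 at 0 Gy, 4.83, 5.20 and 4.90 at 1 Gy, 6.05, 5.61 and 5.63 at 2 Gy, 5.14, 4.67 and 8.35 at 4 Gy, 4.93, 6.54 and 5.37 at 8 Gy, and 6.54, 7.20 and 5.92 at 12 Gy. The lung probe was well above background on 10 of 18 arrays. The highest lung, the 4 Gy mouse 24, also had the highest sum of hepatocyte markers among lungs, 16.78 against 9.84 in the lowest, and its albumin (Alb) level was 14.79. Lung Creb3l3 was not called at 12 Gy (1.13, adjusted p = 0.26) or by the trend (1.06, adjusted p = 0.145). Without mouse 24 both were called, at 1.13 (adjusted p = 0.0415) and 1.12 (adjusted p = 0.0231). Hepatocyte markers in lung, whose trend had a median of 1.27 with 0 of 10 called and 1 at an unadjusted p-value below 0.05 in limma, moved beside it, and their part in the Creb3l3 values was not tested.

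Fgf21, the fasting hormone (A_52_P235347, chr7:45613890-45615490), was dim. Liver Fgf21 read 5.10, 4.96 and 5.77 at 0 Gy, 5.39, 5.46 and 5.14 at 1 Gy, 4.44, 5.48 and 5.91 at 2 Gy, 4.97, 5.38 and 5.78 at 4 Gy, 5.19, 5.13 and 6.28 at 8 Gy, and 6.48, 5.56 and 6.71 at 12 Gy. The highest livers were found at 12 Gy, but that group overlapped the unirradiated one. The probe was well above background on 10 of 18 liver arrays, on 1 of 3 at 0 Gy and on 3 of 3 at 12 Gy. The 12 Gy difference of 0.97 (SE 0.41, adjusted p = 0.185) and the trend of 0.89 (SE 0.31, adjusted p = 0.0779) were not called. Without the 12 Gy mouse 16 the trend was 1.07 and called (adjusted p = 0.0495).

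**Figure D3:**
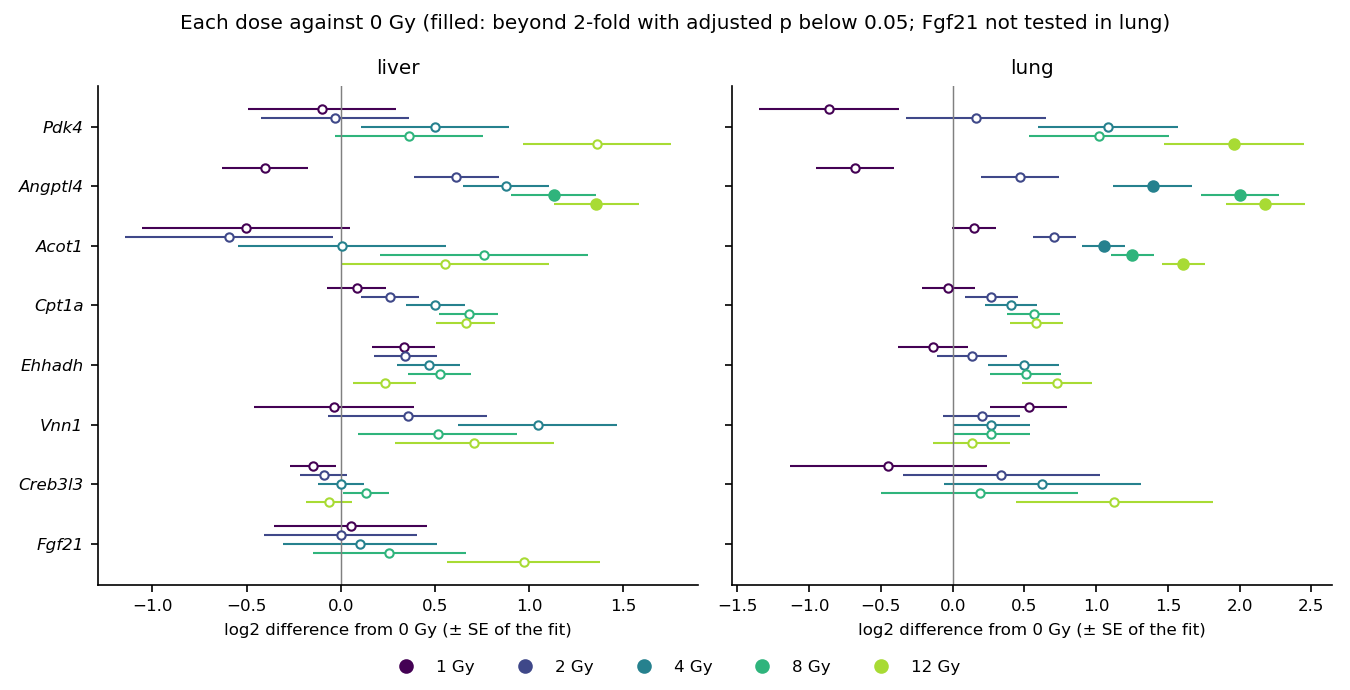
Log2 difference from 0 Gy (horizontal axis, bars are 1 SE) of each member at each dose, in liver and in lung, with colours for dose and filled points for called differences (Fgf21 was not tested in lung). Called points appear at 8 Gy and above in liver and at 4 Gy and above in lung, and no called point lies below 0.

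Between neighbouring doses no member was called, and few probes of any kind were. In liver 0 of 32 neighbouring contrasts of members passed, with 2 at an unadjusted p-value below 0.05 in limma, while the share of all tested probes called was 0% from 1 to 2 Gy and from 2 to 4 Gy, 0.00521% from 4 to 8 Gy and 0% from 8 to 12 Gy. In lung 0 of 28 passed, with 6 at an unadjusted p-value below 0.05, beside 0.00227%, 0%, 0.0114% and 0.182% of all tested probes over these steps. Of all tested probes, 3753 to 4130 per liver step and 2102 to 8636 per lung step had an unadjusted p-value below 0.05 in limma. For Angptl4 the largest step was from 1 to 2 Gy, at 1.02 in liver (adjusted p = 0.204) and 1.15 in lung (adjusted p = 0.48). The 2 Gy livers highest in Angptl4, mice 13 and 23, were those with the raised cardiac muscle sum, whose part in the liver step was not tested. Angptl4 had the same order of dose means in both tissues, with 1 Gy lowest, then 0, 2, 4, 8 and 12 Gy. In lung Acot1 followed dose from 0 to 12 Gy. Pdk4 was lowest at 1 Gy and highest at 12 Gy in both tissues, and Cpt1a in liver was lowest at 0 Gy and highest at 8 Gy.

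Levels in the unirradiated tissues differed for 7 of 8 members, beside 35.5% of all probes tested over the 36 arrays normalized together. Pdk4 was the 1 member higher in lung, 3.31-fold (log2 1.73, SE 0.47, adjusted p = 0.00246). That call was lost without the samples numbered 21 (log2 1.16, adjusted p = 0.0627), where lung Ucp1 was also highest among 0 Gy lungs. Creb3l3 was 902-fold lower in lung (log2 −9.82), where it was well above background on 2 of 3 arrays, and this difference ran from −11.62 with the authors' series values to −8.53 with a normexp offset of 50. Ehhadh was 30.8-fold lower in lung (log2 −4.95, and −5.54 with the series values). Cpt1a was 2.97-fold lower (log2 −1.57, and −2.76 with the series values), Angptl4 2.48-fold lower (log2 −1.31, and −2.46) and Vnn1 2.77-fold lower. Fgf21 was called lower in lung (log2 −1.95, adjusted p = 0.000377), but it was well above background on 1 of 3 livers and 0 of 3 lungs at 0 Gy. With a normexp offset of 50 its difference was −0.76 and not called, which left 6 of 8 members, and with the processed signal scaled to the 75th percentile it was −3.63. For Acot1 no difference was detected (log2 −0.07, adjusted p = 0.897).

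The dose trends of the members were not shown to differ between the tissues, with 0 of 8 differences called beside 7.24% of all probes and 4 at an unadjusted p-value below 0.05 in limma. Over all 47376 tested probes that unadjusted count was 14059. Lung minus liver, the difference in trend over 12 Gy was 1.20 for Angptl4 (SE 0.50, adjusted p = 0.0978), 1.28 for Pdk4 (adjusted p = 0.129), 0.69 for Ehhadh (adjusted p = 0.055) and −1.01 for Fgf21 (adjusted p = 0.139). Fgf21 was well above background on 0 of 18 lung arrays, so its value sets a liver trend against lung background. Within doses, deviations of Angptl4 from the dose mean in liver and lung samples of the same number had r = 0.82 over 18 numbers (exact permutation p = 0.0267, two-sided, adjusted p = 0.187 over 7 members) and rho = 0.61 (exact permutation p = 0.0617, adjusted p = 0.432). Leaving out the 2 numbers farthest from the median gave r = 0.59. For the other 6 members r lay between −0.12 and 0.36. The labels do not say whether a number marks the same animal in both tissues.

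The arrays lay on 5 slides, and slide and dose were partly bound together. Slide 1 held the liver arrays of 0 and 1 Gy with 2 of the 2 Gy group, slide 2 the remaining 2 Gy array, all of 4 and 8 Gy and 1 of 12 Gy, and slide 3 the other 2 liver arrays of 12 Gy with the lung arrays of 0 and 1 Gy. Lung arrays from 2 Gy up were on slides 4 and 5, so that a slide term left no contrast of these doses with 0 Gy in lung. With slide as a term no member was called. In liver Angptl4 then differed by 0.62 at 8 Gy (adjusted p = 0.507) and 0.81 at 12 Gy (adjusted p = 0.497), with a trend of 0.66 (SE 0.44, adjusted p = 0.562), and the Pdk4 trend was 0.51 (adjusted p = 0.774). Lung trends were 1.88 for Angptl4 (SE 0.73, adjusted p = 0.543), 1.97 for Pdk4 (SE 1.07, adjusted p = 0.79) and 0.91 for Acot1 (SE 0.28, adjusted p = 0.312). The Cpt1a trend was 0.47 in liver (SE 0.25, adjusted p = 0.459) and −0.01 in lung (SE 0.32, adjusted p = 0.999), and that of Ehhadh in lung 0.27 (SE 0.46, adjusted p = 0.989).

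With slide as a random block (correlation 0.0737 in liver and 0.243 in lung) most calls held. Liver Angptl4 was called at 8 Gy (log2 1.09, adjusted p = 0.0203), at 12 Gy (log2 1.32, adjusted p = 0.0055) and by trend (1.38, adjusted p = 0.00619), and liver Pdk4 by trend (1.28, adjusted p = 0.038). Lung Angptl4 at 4 Gy (log2 1.44, adjusted p = 0.148) and Pdk4 at 12 Gy (log2 2.03, adjusted p = 0.103) lost their calls, and all 3 lung trends were called. The lung trends of Cpt1a (0.48, adjusted p = 0.141) and Ehhadh (0.68, adjusted p = 0.123) no longer had an adjusted p-value below 0.05. Within slide 2, over 8 liver arrays of 2 to 12 Gy, the slope given over 12 Gy was 0.56 for Angptl4 (SE 0.23, adjusted p = 0.39), 0.58 for Pdk4 and 1.87 for Acot1. Within slide 4, over 8 lung arrays of 2 to 8 Gy, it was 2.77 for Angptl4 (SE 0.69, adjusted p = 0.222), 1.90 for Pdk4 (SE 0.92) and 0.93 for Acot1 (SE 0.39, adjusted p = 0.574). Within slide 1, over 8 liver arrays of 0 to 2 Gy, it was 2.09 for Angptl4 (SE 2.26) and −0.47 for Pdk4 (SE 1.85). Acot1 on slide 1 had −4.83 (SE 2.41, adjusted p = 0.484). Slide 3 held lungs of 0 and 1 Gy only, so its slopes are differences over 1 Gy scaled to 12 Gy. They were −8.18 for Angptl4 (SE 3.24, adjusted p = 0.837), −10.32 for Pdk4 (SE 7.20) and 1.78 for Acot1 (SE 1.57). Slide 5 held lungs of 8 and 12 Gy.

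Around the members, 16 lists of related genes were read, 155 genes in all. By dose trend 10 of the 150 tested in liver were called rising and 9 falling (median 0.11), and 11 of 153 in lung rising and 5 falling (median 0.34), beside medians over all probes of 0.00391 and 0.08. Over all 38362 tested liver probes 342 were called rising and 436 falling by trend (2.03% together). Over all 43979 tested lung probes these counts were 1187 and 1915 (7.05%). Ppara itself, the receptor, had a trend of 0.41 in liver (adjusted p = 0.411) and of 0.13 in lung (adjusted p = 0.736). Among the receptors and coregulators 0 of 13 were called by trend in either tissue, with 4 in liver and 8 in lung at an unadjusted p-value below 0.05 in limma. Of all tested probes 8987 of 38362 in liver and 18188 of 43979 in lung had such a trend.

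In liver the calls on lists related to Acot1 and to lipid storage were all rising. Of all tested liver probes 2.03% were called by trend. Of the other acyl-CoA thioesterases 3 of 6 tested were called rising (median 0.86), namely Acot3 (trend 1.83, adjusted p = 0.0227), Acot5 (1.71) and Acot4 (1.15), which lie near Acot1. Whether their probes share signal with that of Acot1 was not tested. Of the lipid droplet and lipolysis genes 3 of 11 rose, namely Plin4 (2.85, adjusted p = 0.000218) and Plin5 (1.78), which coat lipid droplets, and Lpin1 (1.51), a phosphatidate phosphatase. Of the microsomal omega oxidation genes 2 of 7 rose, the fatty acid hydroxylases Cyp4a14 (1.91, adjusted p = 0.00262) and Cyp4a10 (1.13). Tsku (1.78, adjusted p = 0.0407), a secreted liver protein, and Cebpb (1.07), a transcription factor of gluconeogenic genes, rose by trend, and Pex11a, a peroxisome division factor, at 12 Gy (log2 1.08).

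The liver list that fell was lipogenesis, the fed counterpart, with 9 of 15 called falling, 0 rising and a median trend of −1.29. Of all 38362 tested liver probes 436 were called falling by trend. The largest changes at 12 Gy among them were those of Elovl6, a fatty acid elongase (log2 −1.56, adjusted p = 0.00285), Srebf1, the lipogenic transcription factor (−1.53, adjusted p = 0.000176), Acacb, an acetyl-CoA carboxylase (−1.41, adjusted p = 0.0671, called by trend at −1.65) and Pnpla3 (−1.34, adjusted p = 0.112, called by trend at −2.03). Outside this list Slc16a6, a ketone body transporter (−1.02), and Gpihbp1, which anchors lipoprotein lipase to endothelium (−1.09), were called lower in liver at 12 Gy. Beside Gpihbp1, the summed level of 5 endothelial markers in liver ran from 12.08 to 12.31 at 0 Gy and from 11.66 to 11.76 at 12 Gy, with 1 of 5 called falling by trend (Tek, −1.07) and 4 at an unadjusted p-value below 0.05 in limma, and its part was not tested.

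In lung the lipogenesis list had a median trend of −0.14 over 15 genes, and Me1, malic enzyme, was called falling (−1.06). The lung list counts stand beside 7.05% of all tested lung probes called by trend. Pnpla3 was lower at 12 Gy (−1.15, adjusted p = 0.0137). On the gluconeogenesis and fasting transcription list 3 of 12 rose by trend in lung, namely Tat, tyrosine aminotransferase (2.62, adjusted p = 0.000334), Igfbp1, a secreted binding protein (2.19, adjusted p = 0.00333, well above background on 6 of 18 arrays), and Pck1, the first committed enzyme of gluconeogenesis (1.93, adjusted p = 0.0292). These genes are also expressed in hepatocytes, whose markers in lung were above 0 by trend for 9 of 10 (median 1.27, 0 called), and the part of that signal in the list was not tested. Got1, an aspartate aminotransferase, was called at 12 Gy (1.07). Of the mitochondrial list 2 of 16 rose in lung, Cpt1b, the muscle form of Cpt1a (2.10, adjusted p = 0.00326), and Hadha, of the mitochondrial trifunctional protein (1.16, adjusted p = 0.00029). Cpt1b is also abundant in heart muscle and brown fat, whose markers were present in these lungs, and their part in its trend was not tested.

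Other lung calls by trend were Plin5 (1.25), Lpl, lipoprotein lipase, the enzyme that Angptl4 inhibits (1.07), Tsku (1.12) and Slc27a2, a fatty acid transporter and acyl-CoA synthetase (1.24), all rising. The part of the fat and heart muscle signal of these lungs in such trends was not tested. Falling were Slc27a4, of the same family (−1.34), Fabp1, a fatty acid binding protein (−1.15), and in the pyruvate dehydrogenase list, with 2 of 10, Pdk3, a paralogue of Pdk4 (−1.03), and Mpc2, of the mitochondrial pyruvate carrier (−1.12). Cyp4a12b was higher at 12 Gy (1.05, adjusted p = 0.0174). The lists around Fgf21 (its receptors and partners), Creb3l3 (family and targets) and Vnn1 (vanin and pantetheinase) had 0 genes called by trend in either tissue, with 3, 2 and 4 in liver and 0, 2 and 3 in lung at an unadjusted p-value below 0.05 in limma. Peroxisomal oxidation, the list of Ehhadh, had 0 of 15 called by trend in either tissue, with 6 in liver and 7 in lung at an unadjusted p-value below 0.05 in limma. These list counts stand beside 8987 of 38362 tested probes in liver and 18188 of 43979 in lung at the same unadjusted level. Called by trend were 2.03% of all tested probes in liver and 7.05% in lung.

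**Figure D4:**
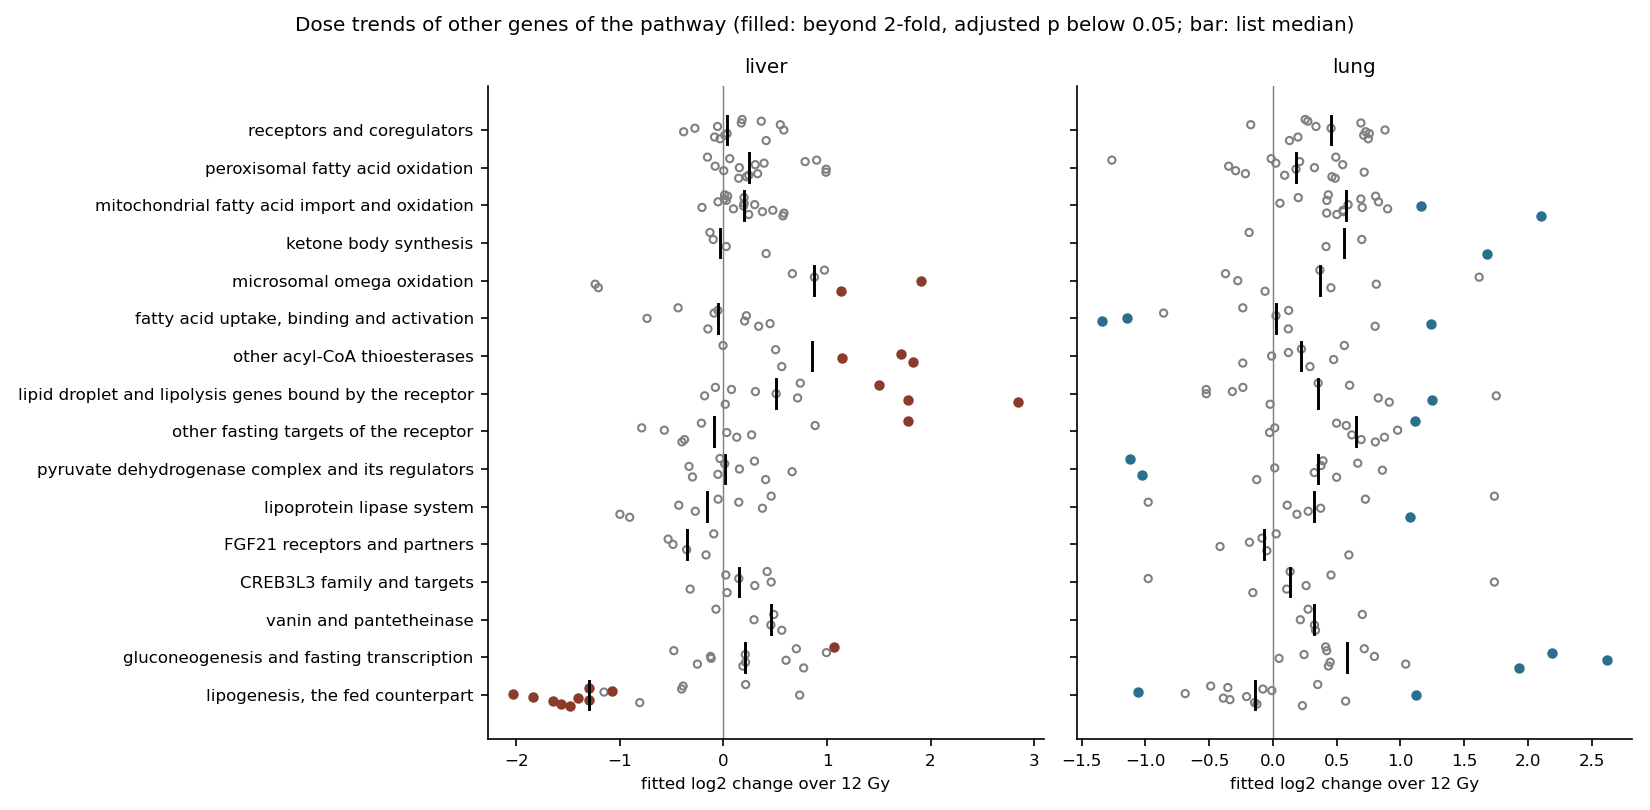
Dose trend (log2 change over 12 Gy, horizontal axis) of every tested gene on the 16 lists, 1 row per list, in liver and in lung, with filled points for called genes and a bar at the median of each list (a gene on several lists is drawn on each). In liver 13 of the 15 lipogenesis genes lie left of 0, with a median of −1.29, and in lung the list has a median of −0.14.

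The genes whose pattern was most like the mean of the standardised members, by Pearson r over the 18 arrays of a tissue, were in liver Lgals4 (r = 0.94), Cyp4a10 (0.93), Slc22a21, Rab30, Cyp4a31, Tlcd4, Eci2, Gadd45b, Acad11 and Crat (0.89). In lung they were Coq3 (r = 0.97), Ndufa12, Fuom, Auh, Acy3, Cmbl, Hsdl2, Oxnad1, Inca1 and Ostm1 (0.93). Cyp4a10, Cyp4a31 and Eci2 were on the lists above, and Crat encodes carnitine acetyltransferase and Acad11 an acyl-CoA dehydrogenase. These points share arrays and dose, and the values are a description. Between pairs of members r ran from 0.13 to 0.87 in liver (28 pairs, median 0.54) and from −0.24 to 0.93 in lung (21 pairs, median 0.64), where the 4 pairs below 0 all held Vnn1.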

How the data were processed

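RNA was hybridized to 1-colour Agilent mouse gene expression arrays (59305 spots, 56605 probes). The scanner files deposited by the authors hold raw spot intensity from Feature Extraction 11.5.1.1. The authors' series table holds processed intensity on a linear scale and was used only as an alternative. Here median signals were corrected with normexp (offset 0) against median background, control and outlier spots were left out, arrays were quantile normalized per tissue (all 36 together for comparisons of tissues) and log2 values were taken, since the deposited intensity is not on the log2 scale. Background correction and normalization are estimated across all probes, so the values of a member are relative to the rest of the array.

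Probes were tested where 1 or more arrays of the fit read them well above background (38362 in liver, 43979 in lung, 47376 together), with Benjamini-Hochberg adjustment over all of them. limma 3.58.1 in R 4.3.3 was used, with the study's thresholds, and adjusted p-values are limma's unless a permutation is named. The code was tested on simulated data. Names came from RefSeq accessions (34566 probes). 9009 probes with Ensembl transcript names were not used. Precision is limited by how many arrays there are. The 36 miRNA arrays were not used.

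The members, the gene lists and the marker lists were chosen with earlier results of these data known. Named genes are all members, Ppara and, per list, at most the 4 called genes with the largest change at 12 Gy, and some called list genes are not reported here. Alternatives were another scaling, offset, filter and outlier rule, the authors' table, fewer arrays, slide, the shared sample number, and each mouse left out in turn. Figures used matplotlib 3.10.9.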

Additional observations from a re-analysis of the deposited data

How the results depend on the processing

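In liver the members called at 12 Gy numbered 2 (Pdk4 and Angptl4) in place of 1 with the processed signal scaled to the 75th percentile, with an offset of 50 and with probes well above background on at least 3 arrays. At 8 Gy in liver the number called was 0 with the authors' series values, where Angptl4 was at 0.97. With slide as a term 0 members were called in liver at 8 Gy, at 12 Gy and by trend and 0 by the lung trend, and the cause was not tested. In lung at 4 Gy the number was 1 in place of 2 with the processed signal, with the series values and with slide as a random block, and 0 with only the arrays of both doses compared, a fit with fewer samples. The trend difference between tissues had 1 call in place of 0 with the series values (Fgf21, −1.55) and 1 with the sample number as a replicate block (Angptl4, 1.20, adjusted p = 0.00312).

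Leaving out each mouse in turn, the number of members called in liver ran from 0 to 1 at 4 Gy, 0 to 1 at 8 Gy, 1 to 2 at 12 Gy and 1 to 4 by trend. In lung it ran from 0 to 2 at 4 Gy, 2 to 2 at 8 Gy, 2 to 4 at 12 Gy and 3 to 4 by trend. It ran from 6 to 7 for lung against liver at 0 Gy and was 0 throughout for the trend difference and at 1 and 2 Gy. The mice whose removal changed a call are named above beside each value.

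Of 1087 single-gene values with every mouse kept, 1036 kept their direction and side of the threshold, 16 lost and 5 gained a call, 0 reversed as a call, and 30 changed sign without being called under either setting. Scaling to the 75th percentile moved the median difference over all probes to 0.13 in liver at 8 Gy and to −0.28 for lung against liver at 0 Gy, where the series values gave −0.32 and quantile normalization −0.05.

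The sample number was not treated as a pairing. Samples of the same number in liver and lung had deviations from their dose means that correlated at −0.065 to 0.096 over 18 pairs (median 0.0021), 0 of them above 0.1, and 7 of 18 samples correlated best with their own number. The replicate block changed no other call.

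With 3 mice per dose and 1 spot per gene, the spread between mice limits the calls. Dim probes (Fgf21 in both tissues, Creb3l3 in lung) carried little signal over background. Slide is tied to dose, and in lung the 0 Gy arrays shared their slide only with 1 Gy. The part of fat, heart and muscle signal in lung was examined for Pdk4, Angptl4 and Acot1 with fat markers only.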
